A study of Mus musculus with 6 samples.

Results

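The MEF2 factors and the class IIa histone deacetylases were followed through the RNA of differentiating C2C12 cells with and without *Hnrnpa2b1*. The group holds 8 of the 46078 genes in the deposited count table, taken by name: the 4 MEF2 genes (*Mef2a*, *Mef2b*, *Mef2c*, *Mef2d*) and the 4 class IIa histone deacetylase genes (*Hdac4*, *Hdac5*, *Hdac7*, *Hdac9*). C2C12 is an immortalised mouse myoblast line that leaves the cell cycle and fuses into myotubes when serum is withdrawn. The knockout (KO) was made with CRISPR-Cas9 and a single guide against *Hnrnpa2b1*, an RNA-binding protein of the hnRNP family, and 3 KO and 3 wild-type (WT) clones, each isolated independently, were kept after puromycin selection. Total RNA was taken after 2 days of differentiation, depleted of ribosomal RNA and sequenced in 3 libraries per genotype, with 33605258 to 40558740 counts per library. Whether each library came from a clone of its own is not given in the sources used here, so that p-values measure the spread between these libraries, which may be between clones or technical.

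MEF2 proteins are transcription factors that bind an A/T-rich DNA site and, together with the MyoD family, turn on genes of muscle contraction and metabolism during differentiation. Class IIa histone deacetylases bind MEF2 on DNA and hold its targets silent. Calcium-dependent and other kinases phosphorylate them, adaptor proteins encoded by the *Ywha* genes then bind, and the deacetylases leave the nucleus. *Hdac9* is itself known as a gene that MEF2 activates, and *Mef2c* is known to be switched on as myoblasts differentiate.

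The cells carried muscle RNA in all 6 libraries. *Myog*, the myogenic regulator of early differentiation, stood at 1005 to 1709 CPM (counts relative to the library's total, with TMM scaling) in KO and at 1244 to 1464 in WT. Among 13 markers of other cell types, 7 did not pass the filter on low counts, with at most 11 counts in any library, and these included *Ptprc* of blood cells, *Pecam1* and *Cdh5* of endothelium and *Epcam* of epithelium. The summed level of the 13 markers was 49.97 to 93.8 CPM in KO and 32.6 to 36.7 CPM in WT, and the mesenchymal receptor gene *Pdgfra* and the neuronal tubulin gene *Tubb3* were higher in KO by 1.17 and 2.76 on the log2 scale (edgeR adjusted p = 0.0257 and 0.00422). The call of *Pdgfra* was lost without KO3 or any single WT library. Their part in the results below was not tested. The targeted gene did not separate the genotypes at the RNA level: *Hnrnpa2b1* stood at 159, 195 and 249 CPM in KO1 to KO3 and at 225, 229 and 252 in WT1 to WT3 (log2 fold change -0.23, edgeR adjusted p = 0.381), so that its RNA neither bears out nor goes against the genotype labels. The methods describe a check of the KO clones at the protein level, by Western blot and immunofluorescence.

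KO1 stood apart from the other KO libraries in muscle genes. The median of 12 muscle identity markers, taken relative to the WT mean on the log2 scale, stood at 0.32, -0.75 and -1.03 for the libraries KO1, KO2 and KO3, whereas WT ranged from -0.24 to 0.20. The summed level of those markers was 29712 CPM in KO1, above every WT library (21421 to 27079 CPM), and 13396 and 19221 CPM in KO2 and KO3. Where leaving out KO1 changed the call of a member, or moved a fold change given for a called gene by over 1.5 times, the value without it is given as well. In bulk RNA, fewer cells of a type and less RNA per cell cannot be told apart.

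Of the 8 genes, 7 passed the filter on low counts and 2 of these, *Mef2c* and *Hdac9*, fell in KO with edgeR. None rose, at an unadjusted p under 0.05 or by DESeq2. Across all 14828 genes tested with edgeR's quasi-likelihood test (Benjamini-Hochberg adjusted p under 0.05), 22.7% were called in either direction, 10.6% lower and 12.1% higher in KO. At an unadjusted p under 0.05 edgeR had 5781 of the 14828, and DESeq2 called 23.9% of the genes it tested. The KO and WT libraries did not overlap in 3 of the 7 genes, *Mef2c*, *Hdac5* and *Hdac9*, against 44.3% of all genes tested. With 7 genes, 28.6% called is near the background in either direction, and both calls were lower. As to the size of the change, 2.23% of all genes tested were called with a log2 fold change of -2 or lower and 0.661% with one of -4 or lower. The median log2 fold change of the 7 genes was -0.41, beside 0.03 for all genes tested.

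**Figure D1:**
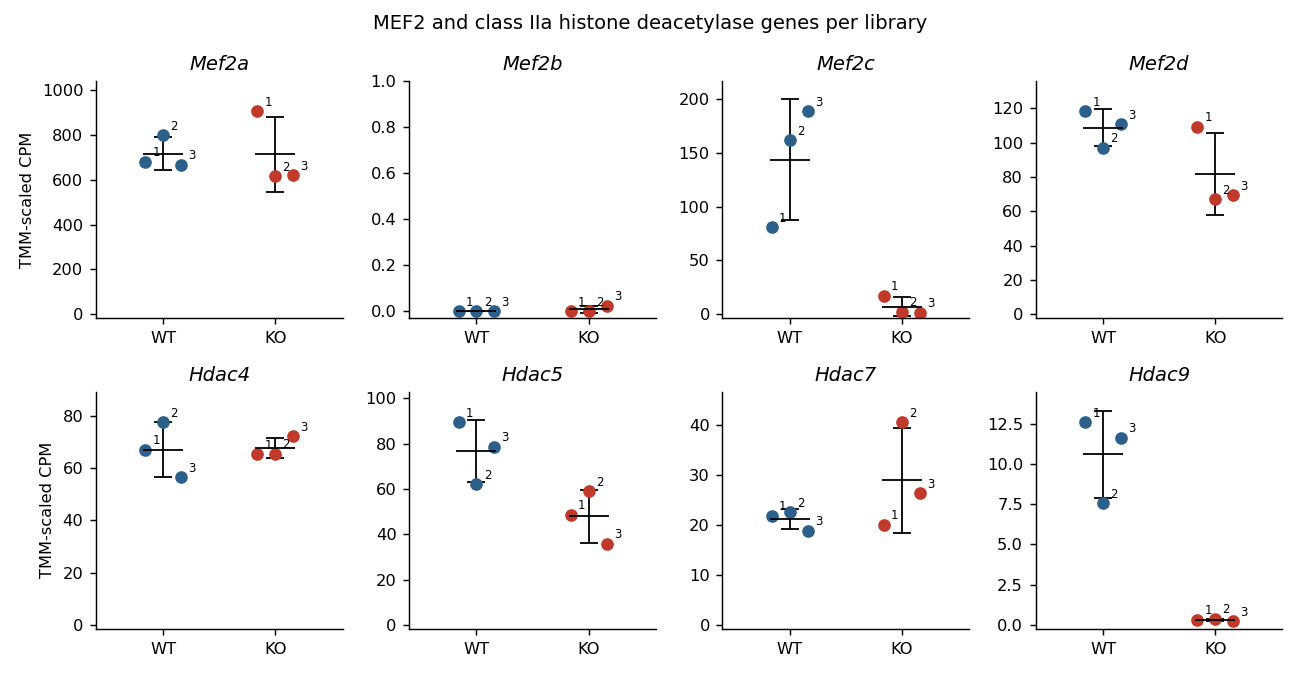
TMM-scaled CPM of each of the 8 genes in the 3 WT (blue) and 3 KO (red) libraries, numbered by replicate, with the mean and SD as bars. *Mef2c* and *Hdac9* lie far lower in all KO libraries, *Hdac5* is lower without overlap by a small margin, and *Mef2a*, *Mef2d*, *Hdac4* and *Hdac7* overlap.

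*Mef2c* lies on chromosome 13 (chr13:83504034-83667080, plus strand, build GRCm38) and is the MEF2 gene known for its role in myotube maturation. It stood at 80.8, 162 and 189 CPM in WT1, WT2 and WT3 and at 17.1, 2.34 and 1.17 CPM in KO1, KO2 and KO3. Every KO library lay below every WT library, and the KO libraries themselves were spread, with KO1 well above the other two. The mean was 144 ± 56.1 CPM in WT and 6.86 ± 8.86 CPM in KO (SD, n = 3 each).

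The fitted level of *Mef2c* was 21.1-fold lower in KO (log2 fold change -4.40, SE 0.95, edgeR adjusted p = 0.0169). Without KO1 the log2 fold change was -6.35 (edgeR adjusted p = 0.000159). Without WT3, the highest WT library, the log2 fold change was -4.18 and the call was lost (edgeR adjusted p = 0.0556).

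*Mef2c* also fell on the scale of TPM, which takes transcript length as well as the library's total into account. Its TPM was 12.7, 23.7 and 24.7 in WT1 to WT3 and 2.31, 0.382 and 0.252 in KO1 to KO3. The difference on the log2(TPM + 1) scale was -3.52 (limma adjusted p = 0.000971), where 20.5% of the 11691 genes tested were called. It kept its call under all 10 alternatives run on TPM, with differences from -4.73 to -3.27.

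*Mef2a* (chr7:67231163-67372858, minus strand) was the most abundant of the MEF2 genes in every library on the per-length scale, at 82.0 to 123 TPM. Its level was 681, 801 and 669 CPM in WT1 to WT3 and 906, 616 and 621 CPM in KO1 to KO3. KO1 was the highest of all libraries and the other KO libraries the lowest, so that the groups overlapped. The log2 fold change was -0.01 (SE 0.20, edgeR adjusted p = 0.988), and its sign turned under other settings.

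*Mef2d* (chr3:88142372-88172086, plus strand), which is expressed in myoblasts before differentiation, stood at 118, 97.0 and 111 CPM in WT1 to WT3 and at 109, 66.9 and 69.4 CPM in KO1 to KO3. KO1 lay within the WT range and the other KO libraries below it. The log2 fold change was -0.41 (SE 0.21, edgeR adjusted p = 0.179). Without KO1 it was -0.68 and passed the threshold (edgeR adjusted p = 0.00939). On TPM, *Mef2d* stood at 25.4, 21.3 and 22.7 in WT and at 21.3, 14.1 and 16.6 in KO, and the limma difference of -0.41 did not pass the test (adjusted p = 0.124).

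*Mef2b* (chr8:70152778-70167488, plus strand) had 1 count in KO3 and 0 counts in the other 5 libraries and was not tested. A count of 0 allows up to 3 counts per library. The deposited TPM values disagree with this, at 1.18, 1.17 and 0.910 in WT1 to WT3 and at 0.228, 0.186 and 0.112 in KO1 to KO3. All 14711 bases of the gene lie within *2310045N01Rik* on the same strand, which held 485 to 773 counts per library and did not pass the test (log2 fold change -0.10, edgeR adjusted p = 0.693).

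How reads in the shared span were assigned is not given in the sources used here, and the level of *Mef2b* is uncertain. Its TPM missed the filter on low values. Without that filter the difference on the log2(TPM + 1) scale was -0.83 (limma adjusted p = 0.0198).

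The make-up of the MEF2 family followed from these levels. In WT, *Mef2c* held 9.46%, 14.0% and 18.2% of the summed TPM of the 4 genes in WT1 to WT3. In KO it held 1.70%, 0.395% and 0.209% in KO1 to KO3. The difference of the means was -13.1 percentage points (exact permutation test, two-sided p = 0.1, the smallest that 3 libraries against 3 can give).

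*Mef2a* held 64.3% to 72.8% in WT and 82.5% to 85.9% in KO, again without overlap (exact permutation p = 0.1). *Mef2d* held 12.6% to 18.9% in WT and 13.8% to 15.6% in KO, which overlap. The summed TPM of the family overlapped between genotypes, with 135 to 170 in WT and 96.7 to 136 in KO (exact permutation p = 0.3).

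In WT the order of TPM was *Mef2a*, then *Mef2d* and *Mef2c*, then *Mef2b*. *Mef2d* and *Mef2c* did not separate there: the log2 ratio of *Mef2c* to *Mef2d* TPM was -0.996, 0.15 and 0.12 in WT1 to WT3. In KO the same ratio was -3.20, -5.21 and -6.04 in KO1 to KO3, so that *Mef2d* exceeded *Mef2c* in every KO library.

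**Figure D2:**
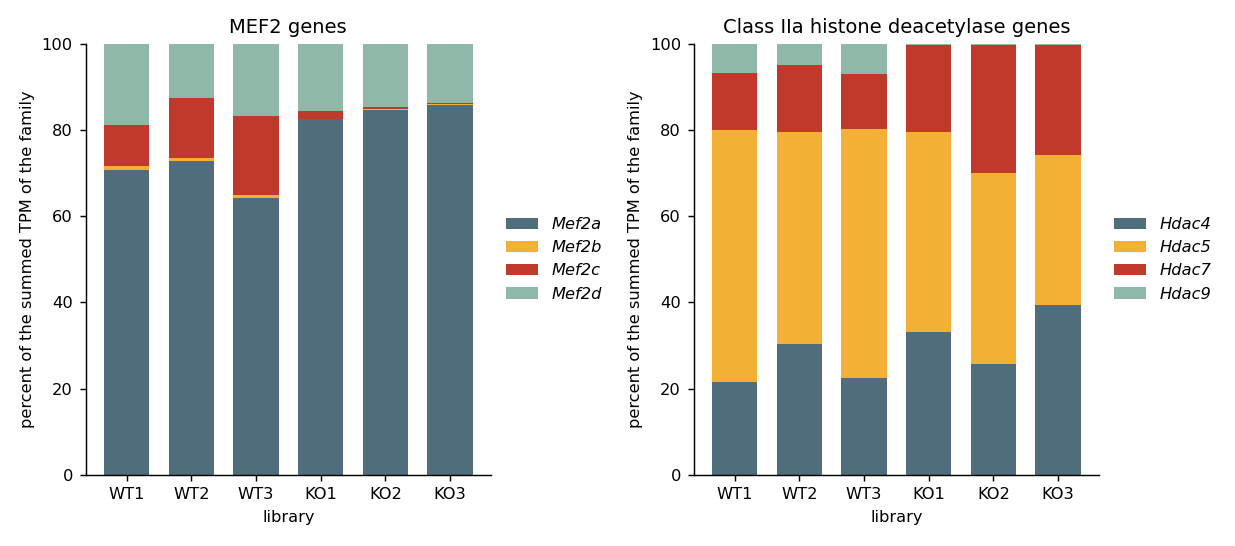
Percent of the summed TPM of each family that each gene held, per library, for the MEF2 genes (left) and the class IIa histone deacetylase genes (right). *Mef2c* narrows from 9.46% to 18.2% in WT to at most 1.70% in KO, and *Hdac9* from 4.77% to 6.99% to at most 0.277%.

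*Hdac9* (chr12:34371503-34528889, minus strand, in the deposited abundance values, and 34047580 to 34917095 in GENCODE M21) was the other gene that fell. It stood at 12.6, 7.56 and 11.6 CPM in WT1 to WT3 and at 0.308, 0.389 and 0.2197 CPM in KO1 to KO3. The KO libraries held 11, 17 and 9 counts of the gene and the WT libraries 436, 248 and 432. KO libraries lay close together, with KO1 no higher than KO2, and far below all WT libraries.

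The mean of *Hdac9* was 10.6 ± 2.68 CPM in WT and 0.306 ± 0.0848 CPM in KO (SD, n = 3 each). The fitted level was 34.3-fold lower in KO (log2 fold change -5.10, SE 0.34, edgeR adjusted p = 0.00039). The call held under all 11 alternatives to the count test, with log2 fold changes from -5.32 to -4.90 and adjusted p up to 0.00479 (edgeR without WT3). On TPM, *Hdac9* was at 1.202 to 1.97 in WT and at 0.0306 to 0.0651 in KO, a difference of -1.30 on the log2(TPM + 1) scale, which understates the change of a gene this low. It passed the filter on TPM through its WT libraries alone, and with no filter the limma adjusted p was 0.0175.

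*Hdac5* (chr11:102194432-102230166, minus strand), a class IIa deacetylase released from MEF2 by calcium-dependent kinases, had the highest TPM of its class in every WT library, at 12.4 to 16.8. It stood at 89.4, 62.0 and 78.5 CPM in WT1 to WT3 and at 48.6, 59.0 and 35.9 CPM in KO1 to KO3. The groups did not overlap, but KO2 lay only just below WT2. The log2 fold change was -0.68 (SE 0.21, edgeR adjusted p = 0.0527), just short of the threshold.

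The call of *Hdac5* moved with the tool and the library. It was made by DESeq2 (log2 fold change -0.71, adjusted p = 0.0244, with 23.9% of genes called) and by edgeR without KO2 (-0.86, adjusted p = 0.0349), and by limma on TPM (-0.67, adjusted p = 0.0312). On TPM it was lost without KO3, WT1 or WT3 (limma adjusted p = 0.0842, 0.153 and 0.0838).

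*Hdac4* (chr1:91928779-92180341, minus strand), which represses MEF2 targets in muscle and is induced by denervation, stood at 67.2, 77.7 and 56.6 CPM in WT1 to WT3. In KO it stood at 65.4, 65.5 and 72.2 CPM in KO1 to KO3, all within the WT range. The log2 fold change was 0.01 (SE 0.14, edgeR adjusted p = 0.960).

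*Hdac7* (chr15:97792664-97844502, minus strand), known in endothelium and thymocytes as well as in muscle, stood at 21.9, 22.6 and 18.9 CPM in WT1 to WT3 and at 20.03, 40.6 and 26.3 CPM in KO1 to KO3. KO1 lay within the WT range and KO2 and KO3 above it. The log2 fold change was 0.46 (SE 0.25, edgeR adjusted p = 0.214).

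Without KO1 the log2 fold change of *Hdac7* was 0.66 and passed the threshold (edgeR adjusted p = 0.0418), and without KO2 it was 0.14 (edgeR adjusted p = 0.618). The last 29 bases of the gene overlap *Slc48a1* on the opposite strand, which rose in KO (log2 fold change 0.64, edgeR adjusted p = 0.0283). Whether the counting used strand is not given in the sources used here, so reads in that overlap cannot be told apart.

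Among the class IIa deacetylases the shares of TPM shifted as well. *Hdac9* held 6.84%, 4.77% and 6.99% of the class in WT1 to WT3 and 0.256%, 0.277% and 0.147% in KO1 to KO3. *Hdac5* held 49.1% to 58.4% in WT and 34.8% to 46.5% in KO, and *Hdac7* held 12.7% to 15.7% in WT and 20.2% to 29.6% in KO, both without overlap (exact permutation p = 0.1 for each of the 3 genes). *Hdac4* overlapped, at 21.6% to 30.4% in WT and 25.8% to 39.4% in KO.

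The summed TPM of the class was 28.8, 25.2 and 23.4 in WT1 to WT3 and 17.3, 23.5 and 20.9 in KO1 to KO3. KO2 slightly exceeded WT3, so the groups overlapped (difference -5.24, exact permutation p = 0.2). With the deposited FPKM values the difference was -3.01 (exact permutation p = 0.3). On TPM rescaled without the 3 highest genes, a scale added once the data had been examined, it was -7.13 (exact permutation p = 0.3). Whereas *Hdac5* led the class on TPM in every WT library, in KO3 *Hdac4* was higher than *Hdac5* (8.21 against 7.27 TPM).

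**Figure D3:**
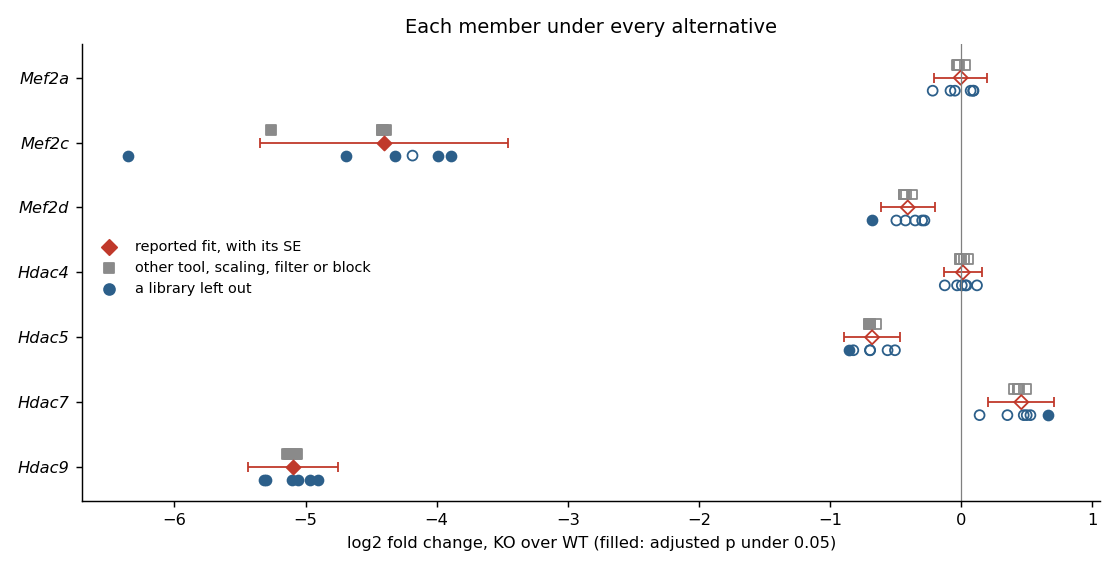
log2 fold change of the 7 tested genes, KO over WT, in the edgeR fit reported (red diamond with its SE), under another tool, scaling, filter or replicate block (grey squares) and with 1 library left out (blue circles), where filled symbols passed an adjusted p of 0.05. *Hdac9* stays filled throughout, *Mef2c* is open only without WT3, and *Mef2a* and *Hdac4* fall on both sides of 0.

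The neighbours of *Hdac9* and *Mef2c* on the chromosome had medians near or above that of all genes tested. Within 5 Mb of *Hdac9*, 27 other genes were tested, with a median log2 fold change of 0.29, and the 482 tested genes of chromosome 12 had a median of 0.39, with 75.3% above 0. *Hdac9* fell on a chromosome whose genes lay mostly higher in KO. The 1210 other tested genes of chromosome 11, which holds *Hdac5*, leaned the other way, with a median of -0.13 and 41.3% above 0. Within 5 Mb of *Hdac5* the median was 0.09 over 192 genes. Within 5 Mb of *Mef2c*, 15 genes were tested, with a median of 0.03, and 1 was called higher and 1 lower. Around *Mef2b* the median was -0.29 over 126 genes, of which 31 were lower and 4 higher.

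Promoter sequence was read for all 8 genes, which had 14 annotated promoters in the RefSeq table of GRCm38.p6, each of 300 bases from 250 before to 50 after a start site. The core of the MEF2 site was searched as CTA and TAG separated by any 4 bases, a pattern that reads the same on both strands. It was present in 3 of the 14 promoters and in 3.69% of the 32851 promoters of the table. The 3 stretches are shown because MEF2 is known to act on genes of its own circuit, with the match in capitals and read 5′ to 3′ on the strand of the gene.
Mef2a: cctgactcCTAAAAATAGccccggtg
Hdac5: gtctgagcCTATTTTTAGctcggggt
Hdac9: gattatcaCTAGCTTTAGccaacttg

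The *Mef2a* match (chr7:67372843-67372868, minus strand, flanks included) begins at -2, counted from the start site, and runs across that site. The *Hdac5* match (chr11:102230175-102230200, minus strand) begins at -20 and the *Hdac9* match (chr12:34528904-34528929, minus strand) at -32. The usual consensus of the MEF2 site allows A or T alone in the middle bases and a pyrimidine and a purine at its ends. It was matched in *Mef2a* and *Hdac5* but not in *Hdac9*, in 2 of the 14 promoters and in 3.19% of all promoters. The 3 genes with the letters differed in size of change and in call: *Hdac9* fell, *Hdac5* missed the threshold and *Mef2a* had a log2 fold change of -0.01. Of 22 MEF2-controlled muscle genes with a promoter in the table, 5 held the core, *Des*, *Jun*, *Klf2*, *Myoz2* and *Xirp2*, and of these *Xirp2* alone passed the test of expression. The usual consensus was matched in 7 of the 22, *Casq2*, *Jun*, *Klf2*, *Myoz2*, *Pgam2*, *Srpk3* and *Xirp2*, of which *Pgam2* and *Xirp2* passed the test. These genes had 29 promoters, of which 5 held the core and 7 the consensus.

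No promoter of *Mef2c* in the table held this MEF2 core, which says only that these letters are not in those windows. The muscle TEAD motif, searched as CATTCC on both strands and present in 14.7% of all promoters, was matched in 3 of the 14 promoters, those of *Mef2c* and *Hdac7*. In *Mef2c* it lies on the reverse strand (chr13:83503951-83503972, plus strand), with the first base at -75 of the start site, and it is shown because it lies by the other member that fell.
Mef2c: attttttaGGAATGattttgga

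The E-box CAGCTG, the letters bound by MyoD and myogenin, reads the same on both strands. It was present in 16.3% of all promoters and in 3 of the 14 promoters of the members, which belong to 2 of the 8 genes. Both were deacetylase genes, *Hdac7* and *Hdac9*. In *Hdac9* each of its promoters with a match held 1 E-box, with the first base at -183 and at -89 of their own start sites.
Hdac9 E-box at -183: aggctggaCAGCTGgctttggt
Hdac9 E-box at -89: tatgtggcCAGCTGcccccagc
The former lies at chr12:34529059-34529080 and the latter at chr12:34917171-34917192, both on the minus strand.

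Muscle genes that MEF2 is known to control had the lowest median of the lists around the members. Of 25 listed and tested, 8 fell (beside 10.6% of all genes tested), 1 rose and 16 did not pass the test, and the median log2 fold change was -0.83, beside 0.03 for all genes tested. Of the list, *Myog*, *Des* and *Ckm* are also general markers of differentiation.

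*Ppargc1a*, the coactivator that drives mitochondrial and slow-fibre genes, stood at 37.6, 21.4 and 37.9 CPM in WT1 to WT3 and at 2.27, 1.40 and 1.03 CPM in KO1 to KO3 (log2 fold change -4.37, edgeR adjusted p = 0.000728). *Slc2a4*, the insulin-responsive glucose transporter gene, stood at 52.1, 29.4 and 69.9 CPM in WT and at 7.72, 2.56 and 1.27 CPM in KO (log2 fold change -3.72, edgeR adjusted p = 0.00819). *Xirp2*, an actin-binding protein gene of the sarcomere, stood at 45.3, 38.5 and 77.3 CPM in WT and at 7.61, 0.137 and 0.806 CPM in KO (log2 fold change -4.26, edgeR adjusted p = 0.029). All 3 genes were lower in every KO library than in any WT library, and in each of them KO1 was the highest KO library. The calls of *Ppargc1a* and *Slc2a4* held without any single library. That of *Xirp2* was lost without KO3 or any single WT library (edgeR adjusted p up to 0.0897), and without KO1 its log2 fold change was -6.85. Without KO1 that of *Slc2a4* was -4.72.

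*Myl2*, the slow and cardiac regulatory myosin light chain gene, went the other way, at 1.27, 0.914 and 1.40 CPM in WT1 to WT3 and 82.7, 3.73 and 12.4 CPM in KO1 to KO3 (log2 fold change 4.77, edgeR adjusted p = 0.0204). All KO libraries exceeded all WT libraries, and KO1 led. Without KO1 the log2 fold change was 2.74, and the call was lost without any single WT library (edgeR adjusted p up to 0.088). The other 5 genes called, named after their values were seen, were *Nr4a1*, *Pgam2*, *Smyd1*, *Hrc* and *Pfkm*, with log2 fold changes from -2.59 to -1.10. They encode an immediate-early nuclear receptor, a muscle glycolytic enzyme, a muscle methyltransferase, a calcium-binding protein of the sarcoplasmic reticulum and muscle phosphofructokinase. *Nr4a1* and *Smyd1* kept their calls without any single library, and the other 3 lost them without KO2, KO3, WT1 or WT3. Without KO1 the log2 fold change of *Nr4a1* was -3.33 and that of *Pgam2* -2.60.

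The number of MEF2-controlled genes called lower rested on the libraries. It was 19 without KO1, 5 without KO2, 4 without KO3, 4 without WT1, 7 without WT2 and 4 without WT3. Over all genes tested the number lower was 2331, 1261, 919, 473, 1029 and 672 in the same order, beside 1565 with all libraries. The number of the list called higher was 2 without KO1 or KO3, 1 without KO2 and 0 without any single WT library. Over all genes tested, 2381, 1169 and 1434 were higher without KO1, KO3 and KO2, beside 1796 with all libraries. Without WT1, WT2 and WT3 it was 460, 1071 and 616. Relative to the WT mean, the median of the list stood at -0.11, -1.42 and -1.51 for KO1, KO2 and KO3, whereas WT libraries ranged from -0.36 to 0.16.

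General muscle identity markers had a median log2 fold change of -0.37, and 7 of the 12 had one below 0. The embryonic and perinatal myosin genes *Myh3* and *Myh8* had log2 fold changes of -1.18 and -1.73 (edgeR adjusted p = 0.126 and 0.0562). Of 12 tested with edgeR, 0 were called lower and 2 were called higher, *Myod1* and *Cdh15* (log2 fold change 0.99 and 0.70, edgeR adjusted p = 0.0141 and 0.0258). The 16.7% called compares with 22.7% of all genes tested. At an unadjusted p under 0.05 3 were lower and 2 higher, beside 5781 of all 14828 genes in either direction. DESeq2 called 2 lower and 2 higher, beside 23.9% of all genes. On TPM limma called 3 lower (*Myh3*, *Myh8* and *Actc1*) and 2 higher (*Myod1* and *Cdh15*), beside 20.5% of all genes. Without KO1, 7 of the 12 were lower, and over all genes tested 2331 were, beside 1565 with all libraries. Without WT1 or WT3 none of the 12 was higher, and without KO3 1 was. Over all genes tested 460, 616 and 1169 were higher in those fits, beside 1796 with all libraries.

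**Figure D4:**
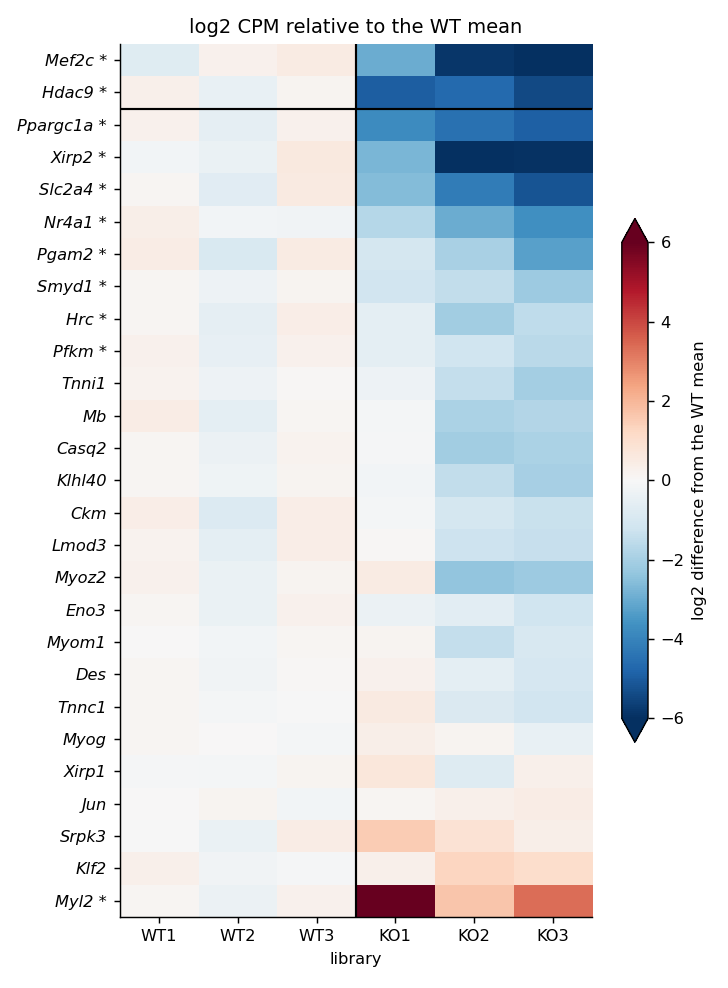
log2 CPM of *Mef2c*, *Hdac9* and the 25 MEF2-controlled genes in each library, as the difference from the WT mean of the gene (colour, limited to 6 in either direction). Genes are ordered by fold change and an asterisk marks an adjusted p under 0.05 (edgeR), and KO1 is paler than KO2 and KO3 over most of the list but not for *Hdac9*.

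The factors of the MyoD family, which work with MEF2 on the same promoters, and the satellite cell factor *Pax7* went both ways. Of 5 tested, *Myod1* and *Pax7* rose and *Myf5* and *Myf6* fell, beside 12.1% higher and 10.6% lower over all genes tested. *Pax7* stood at 9.89, 3.99 and 9.65 CPM in WT1 to WT3 and at 19.6, 29.5 and 18.4 CPM in KO1 to KO3 (log2 fold change 1.52, edgeR adjusted p = 0.0223). *Myf5* fell by 1.503 and *Myf6* by 3.58 on the log2 scale (edgeR adjusted p = 0.0303 and 0.0162), and *Myog* had a log2 fold change of 0.06. *Myf6* had 61, 44 and 118 counts in WT1 to WT3 and 15, 3 and 2 counts in KO1 to KO3. It passed the filter on low counts because of its WT libraries, and its call rests on that selection. Without KO1 the log2 fold change of *Myf6* was -5.08, and without KO2 that of *Myf5* was -2.11. Without WT1 none of the 5 was called in either direction, and without WT3 likewise. Over all genes tested 460 were higher and 473 lower without WT1, and 616 and 672 without WT3. *Pax7* also lost its call without KO2, and *Myf5* without KO3 or WT2 (edgeR adjusted p = 0.0546, 0.0786 and 0.0826).

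Of 14 coactivators and partners of MEF2, 13 were tested, 2 rose and 1 fell, with a median of -0.02. The 23.1% called is close to the 22.7% of all genes tested. *Mamstr*, a coactivator of MEF2 in skeletal muscle, stood at 9.63, 6.95 and 12.4 CPM in WT1 to WT3 and at 20.1, 32.04 and 15.8 CPM in KO1 to KO3 (log2 fold change 1.23, edgeR adjusted p = 0.0275). All KO libraries exceeded all WT libraries.

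The acetyltransferase gene *Ep300* rose by a log2 fold change of 0.56 (edgeR adjusted p = 0.024), and *Vgll2*, a TEAD cofactor of muscle named after its values were seen, fell by 2.57 on the log2 scale from a low level of at most 1.59 CPM (edgeR adjusted p = 0.017). *Vgll2* had 48, 33 and 59 counts in WT1 to WT3 and 14, 9 and 3 counts in KO1 to KO3. It passed the filter on low counts because of its WT libraries, and its call rests on that selection. Without KO1 the log2 fold change of *Vgll2* was -3.21, and its call was lost without WT1 or WT3 (edgeR adjusted p up to 0.0719), which left 0 coactivators called lower. Without any single WT library none of the coactivators was called higher. Without KO1 4 were higher, and without KO2 or KO3 1 was. Over all genes tested 2381, 1434 and 1169 were higher without KO1, KO2 and KO3, beside 1796 with all libraries. Without WT1, WT2 and WT3 it was 460, 1071 and 616.

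Of the corepressor partners, which include *Hdac3* and *Ncor1* of the complex that class IIa deacetylases need for enzymatic activity, 0 of 14 were called in either direction (edgeR, beside 22.7% of all genes tested). At an unadjusted p under 0.05 the list had 0, beside 5781 of all 14828 genes. DESeq2 called 0, beside 23.9% of all genes, and 0 were called with any single library left out. On TPM, where 20.5% of all genes tested were called, 1 of the 14 was, the heterochromatin protein gene *Cbx5*, named after its values were seen, which was higher in every KO library than in any WT library on both scales (log2 difference 0.57, limma adjusted p = 0.0399, against 0.42 and an edgeR adjusted p of 0.174 on counts). Log2 fold changes were -0.20 for *Ncor1* and 0.21 for *Hdac3*, and the median was 0.03. Among 7 other histone deacetylases 28.6% were called, near the 22.7% of all genes tested. *Hdac1* rose (18.3, 24.0 and 23.5 CPM in WT against 34.2, 51.5 and 51.2 in KO, log2 fold change 1.06, edgeR adjusted p = 0.0106). *Hdac11* fell by 0.86 on the log2 scale (edgeR adjusted p = 0.0329), a call lost without KO3 or any single WT library. *Hdac1* lost its call without WT1.

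Kinases that phosphorylate class IIa deacetylases were listed together with kinases upstream of these, such as *Stk11*. Of 18 tested, 4 were lower and 0 higher in KO, beside 10.6% lower and 12.1% higher over all genes tested. The median was -0.32, and -0.15 over the 17 genes other than *Prkd1*. At an unadjusted p under 0.05 edgeR had 8 lower and 1 higher, beside 5781 of all 14828 genes in either direction. DESeq2 called 8 lower and 0 higher, beside 23.9% of all genes in either direction. *Camk2d*, a calcium/calmodulin-dependent kinase, stood at 123, 102 and 113 CPM in WT1 to WT3 and at 64.5, 48.2 and 48.5 CPM in KO1 to KO3 (log2 fold change -1.07, edgeR adjusted p = 0.00502). *Sik3*, a salt-inducible kinase, and *Stk11*, the kinase upstream of that family, fell by 0.85 and 0.49 on the log2 scale (edgeR adjusted p = 0.0106 and 0.0327). *Camk2d* kept its call without any single library, *Sik3* lost it without WT1, and *Stk11* without KO3 or any single WT library. The number lower was 7 without KO1 and 2 without WT1, beside 2331 and 473 over all genes tested.

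*Prkd1*, which encodes protein kinase D, a kinase known to drive class IIa deacetylases out of the nucleus, had 174, 42 and 232 counts in WT1 to WT3 and 2, 0 and 1 counts in KO1 to KO3 (edgeR adjusted p = 0.00299). The ratio of the group sums, scaled by library size, was 172 with a 95% exact interval of 58.5 to 837, which covers counting error only. Without KO1, which held 2 of the 3 KO counts, the ratio was 363 with an interval of 64.8 to 14363, a value added after the data had been looked at. *Prkd1* passed the filter on low counts through its WT libraries alone, and no value without that filter is given here. Its call among the kinases lower in KO rests on that selection. The call held without any single library, but those fits share the selection and do not test it. The relatives of *Prkd1* did not follow: *Prkd2* and *Prkd3* had log2 fold changes of 0.24 and 0.43 (edgeR adjusted p = 0.475 and 0.0616).

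**Figure D5:**
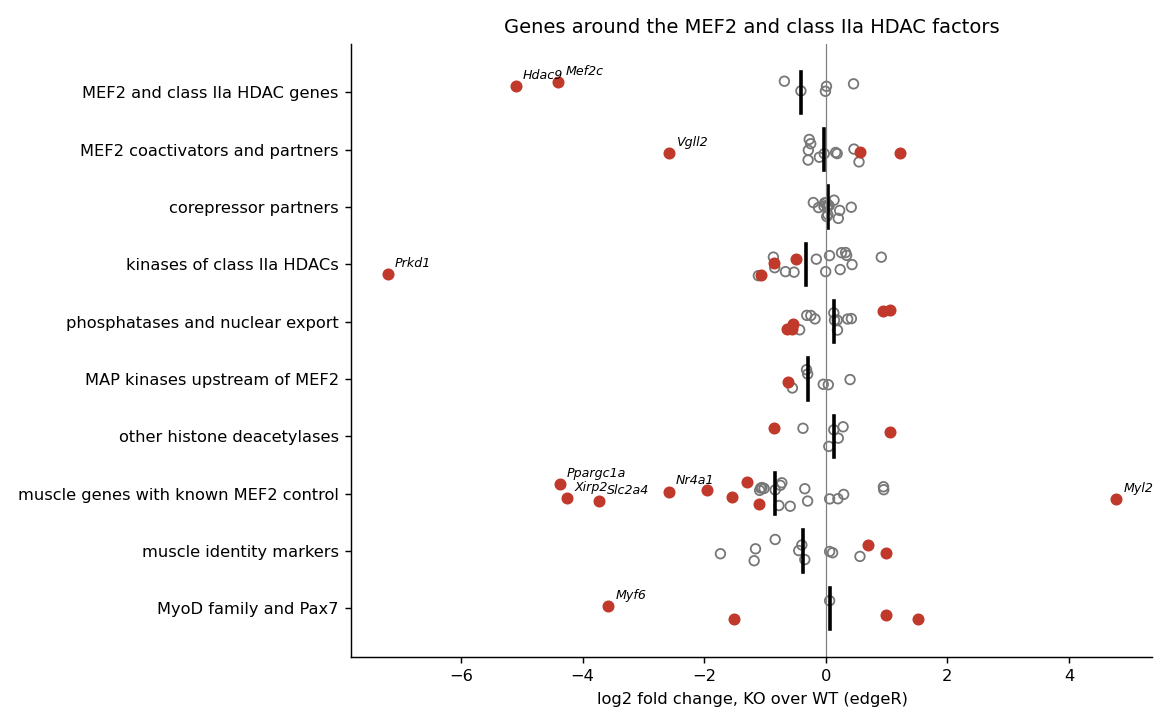
log2 fold change, KO over WT, of every tested gene of each list (circles, filled red at an edgeR adjusted p under 0.05) with the list's median (black bar), and selected genes labelled. The MEF2-controlled genes have the lowest median, -0.83, the corepressor partners lie around 0, and the value of *Prkd1* rests on at most 2 counts per KO library.

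The genes that move class IIa deacetylases between compartments went in both directions, with 3 lower and 2 higher of 15 phosphatase, adaptor and export genes and a median of 0.13. Over all genes tested with edgeR, 10.6% were lower and 12.1% higher. On TPM limma called 2 lower and 4 higher of 14 tested, beside 20.5% of all genes in either direction. The adaptor gene *Ywhab* stood at 79.5, 84.5 and 74.6 CPM in WT1 to WT3 and at 137, 149 and 171 CPM in KO1 to KO3 (log2 fold change 0.94, edgeR adjusted p = 0.00426), and *Ywhaq* rose by a log2 fold change of 1.05 (edgeR adjusted p = 0.00727). Both genes had every KO library above every WT library.

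The adaptor gene *Ywhae* went the other way, at 724, 661 and 656 CPM in WT1 to WT3 and 500, 413 and 398 CPM in KO1 to KO3 (log2 fold change -0.64, edgeR adjusted p = 0.0266). The calcineurin subunit genes *Ppp3r1* and, named after its values were seen, *Ppp3cb* fell by 0.56 and 0.53 on the log2 scale (edgeR adjusted p = 0.0195 and 0.0135). *Ywhab* and *Ywhaq* kept their calls without any single library, *Ywhae* kept its call only without KO1, and the number lower was 1 without KO3, WT2 or WT3 and 0 without WT1. Over all genes tested 919, 1029, 672 and 473 were lower in those fits, beside 1565 with all libraries. The export receptor gene *Xpo1* had a log2 fold change of 0.19 (edgeR adjusted p = 0.318).

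Among 7 MAP kinase genes upstream of MEF2, 1 was called lower, a share of 14.3% beside 10.6% of all genes tested. *Mapk14*, the p38 kinase known to phosphorylate MEF2 in myoblasts, fell by 0.62 on the log2 scale (edgeR adjusted p = 0.0269). It stood at 49.4, 41.4 and 45.2 CPM in WT1 to WT3 and at 32.01, 32.4 and 24.3 CPM in KO1 to KO3, without overlap. Without KO3, WT1 or WT3 none of the 7 was called lower, and without KO1 2 were. Over all genes tested 919, 473, 672 and 2331 were lower in those fits, beside 1565 with all libraries.

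The genes whose profile over the 6 libraries came closest to each member were found by the root mean square difference of centred log2 CPM, among 9018 genes with an edgeR abundance (log2 of the average CPM) of 3 or more. For *Hdac9* they were *Ppargc1a* (0.434), *Dync1i1* (0.447), a dynein intermediate chain gene, and *Myot* (0.450), a gene of the sarcomeric Z-disc. *Dync1i1* stood at 24.5, 12.7 and 10.4 CPM in WT1 to WT3 and at 0.308, 0.389 and 0.195 CPM in KO1 to KO3. Like *Hdac9*, by whose profile it was chosen, it was low in KO1 as in the other KO libraries.

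For *Mef2c* the closest profiles were those of *Akr1c13* (0.558), an aldo-keto reductase gene, *Cyfip2* (0.589), an actin regulator gene, and *Trdn* (0.621), which encodes triadin of the calcium release complex. *Trdn* stood at 606, 495 and 678 CPM in WT1 to WT3 and at 177, 9.64 and 7.32 CPM in KO1 to KO3. It did not pass the test (log2 fold change -3.20, edgeR adjusted p = 0.0774). In these genes, as in *Mef2c* by whose profile they were chosen, KO1 was the highest KO library.

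The members that moved little had closer neighbours. The nearest was *Tango6* for *Mef2a* (0.0481), *Pja2* for *Mef2d* (0.0637), *Ap2a2* for *Hdac4* (0.0346), *Phyh* for *Hdac5* (0.058) and *Ctnnbip1* for *Hdac7* (0.0627). The second for *Hdac7* was the intermediate filament gene *Vim* (0.0778), and the next for *Hdac5* were *Mrps27* (0.0586) and *Sdhc* (0.072), which encode a mitochondrial ribosomal protein and a subunit of succinate dehydrogenase. Over 6 libraries such closeness is a description of these samples.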

How the data were processed

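RNA of 3 *Hnrnpa2b1* KO and 3 WT C2C12 libraries was analysed. Per the study's methods and the submitters' processing notes, the authors aligned reads with STAR, removed ribosomal reads in silico and counted genes with featureCounts, and deposited raw counts with no normalization. The authors also deposited StringTie TPM and FPKM values per library, which were summed over rows sharing a gene identifier. Versions, annotation release and strand setting are not given in the sources used here. The methods name GRCm39 and the notes mm9, whereas 83.2% of the gene spans in the deposited abundance values have the start and end of GENCODE M21 (GRCm38), so coordinates are given as GRCm38. All columns were used (0 unused).

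The members, lists and alternatives were chosen with earlier results of these data known. Counts were scaled by TMM, filtered with filterByExpr and tested with the two-sided edgeR quasi-likelihood test with genotype alone (edgeR 4.0.16, R 4.3.3), Benjamini-Hochberg adjusted over the 14828 genes tested at a threshold of 0.05. TPM of at least 1 in 3 libraries was tested with limma 3.58.1 on log2(TPM + 1). Shares and ratios were compared with two-sided exact permutation tests (SciPy 1.17.1), whose smallest p is 0.1. Totals were 33605258 counts or more, and over all genes libraries of a genotype differed by more than counting noise. At a few counts, as for *Hdac9* and *Prkd1* in KO, counting error limits the precision. Of TPM, 36.7% to 44.7% fell on the 3 highest genes of each library.

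Named genes were all members and up to 4 called genes per list with an edgeR abundance (log2 of the average CPM) of 0 or more. Within a list, those with the largest absolute log2 fold change were taken. Also named were genes overlapping *Mef2b* and *Hdac7*, and up to 3 genes closest in profile to each member. Genes overlapping *Mef2d*, *Hdac4* and *Hdac5* were left unnamed. Genes named outside this rule are stated as such or illustrate a list. Alternatives were DESeq2 1.42.0, RLE and upper-quartile scaling, no filter, a replicate block, a pseudocount of 0.1, FPKM, and leaving out each library. TPM rescaled without the 3 highest genes, and list counts with each library left out, were added once the data had been examined. The procedures were tested on simulated data. Splicing, eCLIP and single-cell data were not analysed here.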

Additional observations from a re-analysis of the deposited data

How the results depend on the processing

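*Hdac9* kept its call under all 11 alternatives to the count test, and *Mef2c* under all but leaving out WT3. *Hdac5* crossed the threshold with DESeq2 (-0.71, adjusted p = 0.0244), edgeR with RLE factors (-0.70, adjusted p = 0.0481) and edgeR with no filter (-0.71, adjusted p = 0.00193). On TPM it lost its call with no filter (-0.67, limma adjusted p = 0.0965) and with TPM rescaled without the 3 highest genes (-0.64, limma adjusted p = 0.0577), the latter chosen after seeing the data. *Mef2b* on TPM was called with no filter (-0.83) and rescaled (-1.09, limma adjusted p = 0.00461). On rescaled TPM it passed the filter on low values through its WT libraries alone, and that call rests on this selection. The cause of these changes with processing was not tested. Values near 0 turned sign: *Mef2a* to 0.027 with upper-quartile factors and to 0.021 on rescaled TPM, and *Hdac4* to -0.014 with DESeq2, -0.0038 with RLE factors and -0.013 with no filter. With 1 library left out, log2 fold changes ran from -0.22 to 0.093 for *Mef2a*, -6.35 to -3.89 for *Mef2c*, -0.68 to -0.28 for *Mef2d*, -0.13 to 0.12 for *Hdac4*, -0.86 to -0.51 for *Hdac5*, 0.14 to 0.66 for *Hdac7* and -5.32 to -4.90 for *Hdac9*. On log2(TPM + 1) they ran from -0.14 to 0.11 for *Mef2a*, -0.56 to -0.28 for *Mef2d*, -0.082 to 0.18 for *Hdac4*, -0.81 to -0.56 for *Hdac5* and 0.23 to 0.64 for *Hdac7*. *Mef2d* and *Hdac7* were called on both scales without KO1 alone. *Hdac9* could not be tested on TPM without a WT library, since the filter then removed it. Over all genes, 460 to 2381 were higher and 473 to 2331 lower with 1 library left out, beside 1796 and 1565, and both counts were lowest without WT1. The replicate numbers do not pair the samples (correlations of same-numbered libraries 0.13, -0.11 and 0.01), and with the replicate block 1309 genes were higher and 1211 lower, *Mef2c* had a log2 fold change of -5.27 (edgeR adjusted p = 0.0267) and *Hdac9* -5.07 (edgeR adjusted p = 0.00274). At 0 or 1 count, *Mef2b* could not be compared on counts, and what set its counts so low was not tested.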
